A study of Mus musculus with 15 samples.

Results

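Axin2 and Clca4b, used as markers of crypt cells, Chga and Scg2, of enteroendocrine cells, and Trpm5, of tuft cells, were read across the ileum of germ-free and monocolonized mice. They are 5 of the 4178 genes listed in the deposited table and 5 of the 3530 that passed a filter on low values, which all 5 passed. The genes were chosen by name, with their values in these same libraries already known, so their levels and differences below are descriptions and carry no test. Where any of them is said below to pass a threshold, that too is only a description and not evidence for the gene. The libraries came from the ileum, the distal small intestine, and the mice were adult C57BL/6 animals kept germ-free until gavage. Each mouse received 200 µl of sterile phosphate-buffered saline (PBS), of Ruminococcus gnavus (RG) or of Lacticaseibacillus rhamnosus GG (LGG), and ileum was taken 21 days later. The PBS mice remained germ-free controls, and the other groups each carried 1 bacterial species. Each group held 5 mice with 1 library each, and the study compared the germ-free ileum with each colonized ileum.

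The intestinal epithelium is renewed from stem cells at the base of the crypts, which depend on Wnt signals, and its daughter cells become absorptive enterocytes or secretory cells. Enteroendocrine cells are rare secretory cells that store peptide hormones and amines in dense granules. Tuft cells are rare chemosensory cells that use part of the taste transduction cascade. In whole tissue, fewer cells of a type and less RNA per cell cannot be told apart.

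Levels are TPM, transcripts per 1e+06 transcripts, which divide by transcript length and by the library total, so that levels of different genes can be set side by side. The listed genes summed to 480498 to 525074 TPM in the LGG libraries and to 585771 to 660553 in the PBS and RG libraries. TPM keep no sequencing depth, so no counting error can be given. Differences are on the log2(TPM + 1) scale, which understates the change of low genes, and are given with their standard error (SE) from limma-trend. A gene passed where its two-sided adjusted p was under 0.05 after Benjamini-Hochberg adjustment over the 3530 genes tested.

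The background of these comparisons was high. For RG against PBS, 22.8% of the genes tested were higher and 4.08% lower past the threshold, with a median log2 difference of 0.38. In LGG against PBS, 54.7% were higher and 16.5% lower, with a median of 1.17. For RG against LGG, 8.19% were higher and 53.5% lower, with a median of -0.72. Rescaling each library by the median of its gene ratios moved these medians to 0.07, 0.40 and -0.23, and upper-quartile scaling moved them to 0.12, 0.30 and -0.08. The number of genes past the threshold in RG against PBS rested on few libraries: it was 948 with all libraries, 440, 40 and 125 without PBS mouse 1, 3 and 5, 184 and 177 without RG mouse 2 and 3, and 1595 without RG mouse 4. Leaving out the first PBS mouse and RG mice 2 and 5, a choice made after the data were seen, limma called 0 genes, and 963 had an unadjusted p under 0.05, so every gene called below for RG against PBS loses its call there. The 5 chosen genes were 0.52 to 0.76 higher in RG than in PBS without these libraries, beside a median of 0.25 over all genes. Scg2, 1 of the 5, was at 0.26 with all libraries, so its value rests on the libraries left out. The 17 listed Paneth cell markers summed to 82130 ± 8544 TPM with PBS, 82110 ± 9302 with RG and 7740 ± 6447 with LGG (SD, n = 5). Because TPM are shares of a total, this moves with the level of every other gene in the LGG libraries, and its part in the differences was not tested.

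**Figure D1:**
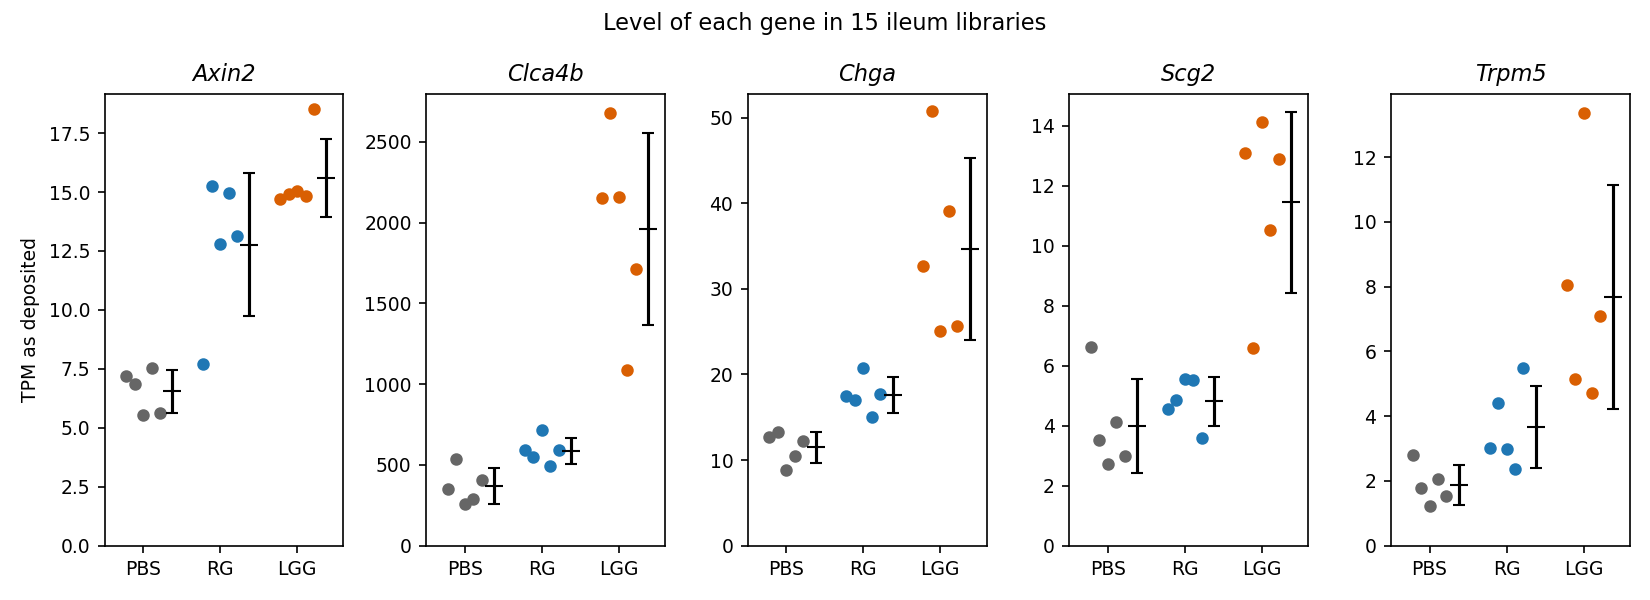
Level of each gene in TPM by group, with 1 point for each mouse and, beside the points, the mean and SD of 5 mice. Chga separates all 3 groups, Axin2 separates PBS from the colonized mice, and Clca4b separates LGG from the others.

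Axin2 encodes a scaffold of the complex that degrades β-catenin and is itself a target of Wnt signalling, which makes it a feedback inhibitor and a common readout of the pathway. It lies on the plus strand at chr11:108920349-108950783 (GRCm38). In the PBS mice its level was 7.19, 6.86, 5.56, 7.52 and 5.63 TPM. In the RG mice it was 7.69, 15.3, 12.8, 14.97 and 13.1 TPM. In the LGG mice it was 14.7, 14.9, 15.03, 14.9 and 18.5 TPM. Every colonized mouse was above every PBS mouse, although RG mouse 1 stood just above the highest PBS mouse and apart from the other RG mice, and RG and LGG overlapped. The group means were 6.55 ± 0.907 TPM with PBS, 12.8 ± 3.04 with RG and 15.6 ± 1.64 with LGG (SD, n = 5).

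On the log2 scale, Axin2 was 0.84 higher in RG than in PBS (SE 0.166) and 1.14 higher in LGG than in PBS (SE 0.166). The first of these was above 95.8% of all genes tested, and the second was above 47.5% of them, close to the middle. Between RG and LGG the difference was -0.30 (SE 0.166), against a median of -0.72 over all genes. Its direction depended on the scaling: Axin2 was 0.19 higher in RG than in LGG with median-of-ratios scaling and 0.34 higher with upper-quartile scaling. The difference from PBS was 0.54 and 0.60 in RG, and 0.36 and 0.26 in LGG, under the same scalings. Without RG mouse 2, whose immune cell markers summed to 1420 TPM against at most 394.3 in any other library, Axin2 was 0.77 higher in RG than in PBS.

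The rest of the Wnt pathway was read from lists that held no member in the counts below. Of 4 other Wnt target and feedback genes tested, none passed for RG against PBS in limma, and their median log2 difference was 0.22. In LGG, compared with PBS, Zbtb7b, a zinc finger transcription factor, rose by 1.43 (adjusted p = 6.26e-07 by limma), and Bambi, a decoy receptor of TGF-β signalling, fell by 0.86 (adjusted p = 7.36e-05 by limma). Nkd1, a feedback inhibitor of Wnt signalling chosen after its values were seen, was at 4.93 ± 1.36 TPM with PBS, 4.35 ± 1.38 with RG and 4.11 ± 0.890 with LGG and did not pass. It passed as lower for LGG against PBS with median-of-ratios and upper-quartile scaling, at -0.91 and -0.98. Tcf7, a transcription factor of the pathway that T cells also express, was 1.00 higher in RG than in PBS with an SE of 0.633 and did not pass, and its level of 44.9 TPM in RG mouse 2 stood far above the others.

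Of 13 tested Wnt pathway components, 4 passed as higher and 0 as lower for RG against PBS, with a median log2 difference of 0.43. These were Csnk1d, a kinase of the pathway, the receptor Fzd5, the co-repressor Tle4 and the R-spondin receptor Lgr4, at 0.51, 0.60, 0.59 and 0.61. With median-of-ratios scaling 0 of the 13 passed, and with upper-quartile scaling 1 passed. In LGG against PBS, 11 of the 13 were higher and 0 lower, with a median of 1.26 beside 1.17 for all genes. Tle4, Ctnnb1 (β-catenin), the co-receptor Lrp5 and Fzd5 had the smallest adjusted p and rose by 1.48, 1.38, 1.18 and 1.37. With median-of-ratios scaling, 11 were higher and 2 lower, and with upper-quartile scaling 9 were higher and 2 lower. For RG against LGG, 0 were higher and 11 lower as deposited, 2 higher and 5 lower with median-of-ratios scaling, and 2 higher and 2 lower with upper-quartile scaling.

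Axin1, chosen after its values were seen, is the paralog of Axin2 in the same complex. Its level was 10.9 ± 1.45 TPM with PBS, 15.6 ± 4.94 with RG and 26.7 ± 3.20 with LGG. The ratio of Axin2 to Axin1 within a library does not depend on how the library is scaled. It was 0.606 ± 0.0554 with PBS, 0.859 ± 0.288 with RG and 0.589 ± 0.0731 with LGG (SD, n = 5). The PBS and LGG ranges overlapped, and the RG libraries spread from 0.579 to 1.27 and overlapped both.

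Clca4b encodes a secreted protein of the CLCA family of chloride channel regulators. It lies on the minus strand at chr3:144910921-144932529, beside its near copy Clca4a at chr3:144952480-144975045 on the same strand. Of the 2967 words of 31 bases in its transcript, 43.5% also occur in another gene, and 1045 of them occur in Clca4a, so reads may have been split between the pair and both levels are uncertain. The other 4 members share 0 to 0.959% of such words.

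The level of Clca4b was 351, 536, 256, 286 and 409 TPM in the PBS mice. It was 595, 550, 713, 491 and 590 TPM in the RG mice. It was 2153, 2678, 2160, 1090 and 1715 TPM in the LGG mice. The lowest LGG mouse stood above every other mouse of PBS and RG, while PBS and RG overlapped because PBS mouse 2 was above the lowest RG mouse. The means were 368 ± 111, 588 ± 81.5 and 1959 ± 594 TPM, which placed Clca4b above 98.9% of the genes tested in LGG by mean level. Its log2 difference was 0.71 in RG and 2.40 in LGG, each against PBS, and -1.68 between RG and LGG (SE 0.230 each). The second was above 99.2% of all genes tested, and it was 1.53 and 1.43 under median-of-ratios and upper-quartile scaling. The RG difference from PBS was 0.37 and 0.43 under these scalings and did not pass there.

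Clca4a had 212 ± 65.7 TPM with PBS, 236 ± 19.1 with RG and 734 ± 121 with LGG. It rose by 1.83 on the log2 scale for LGG against PBS (adjusted p = 3.88e-07 by limma) and was 0.20 higher for RG against PBS, which did not pass and became -0.14 and -0.078 under the same scalings. The ratio of Clca4b to Clca4a was 1.48 to 2.08 with PBS, 2.26 to 2.79 with RG and 1.27 to 3.86 with LGG, where mouse 4 was the lowest of all 15. With the pair summed as 1 row, a choice made after the data were seen, the difference was 0.55 for RG against PBS and 2.24 for LGG against PBS.

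Clca4b, read here as a crypt marker, had a profile near those of genes on the enterocyte list. Levels in whole ileum cannot place its transcript in a cell type. Among the genes whose log2 level over the 15 libraries, centred on its own mean, lay nearest to that of Clca4b were Mttp and Alpi, with root mean square differences of 0.173 and 0.177 against a median of 0.771 over all other genes. Mttp loads lipid onto apolipoprotein B and Alpi is the intestinal alkaline phosphatase. Both are on the list of mature enterocyte markers. In this list 16 of 19 tested genes were higher for RG against PBS, beside 22.8% of all genes tested. For LGG against PBS it was 19 of 19, beside 54.7%. The RG count fell to 3 and the LGG count stayed at 19 after median-of-ratios scaling, and they were 5 and 17 after upper-quartile scaling. The background fell too. Of the 3530 genes tested, 42 and 115 were then higher for RG against PBS, and 1731 and 1467 for LGG against PBS. The ratio of Clca4b to the brush border gene Vil1 was 1.13 ± 0.312 with PBS, 1.10 ± 0.200 with RG and 1.36 ± 0.407 with LGG, with overlapping ranges. Vil1 was chosen for this ratio after its values were seen.

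The crypt base list names 31 genes, of which 5 are in the deposited table beside the 2 members on it. Among the 4 of these tested, 0 passed for RG against PBS by limma. For LGG against PBS, Clca4a and Prom1 rose and Hopx fell. Prom1, a membrane protein of stem cells, was 1.51 higher (adjusted p = 0.0185 by limma) and reached 111.7 TPM in LGG mouse 4. It no longer passed with median-of-ratios scaling (adjusted p = 0.194 by limma). Hopx, a marker of slowly cycling crypt cells, fell by 0.43 (adjusted p = 0.0385 by limma), but was at 0.27 and did not pass with the trend on transcript length removed. Among 4 proliferation genes, the replication helicase subunit Mcm6 rose for RG against PBS by 0.83, and Mcm2 and Mcm6 rose for LGG against PBS by 1.37 and 1.19. With median-of-ratios scaling 0 of the 4 passed for RG against PBS, where Mcm6 was at 0.54 (adjusted p = 0.0583 by limma), and 2 were higher and 2 lower for LGG against PBS. With upper-quartile scaling Mcm6 passed for RG against PBS, and 0 were higher and 2 lower for LGG against PBS, where Mcm2 and Mcm6 were at 0.57 and 0.32 and did not pass. RG mouse 2 held the highest Mcm6 level, 22.8 TPM.

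**Figure D2:**
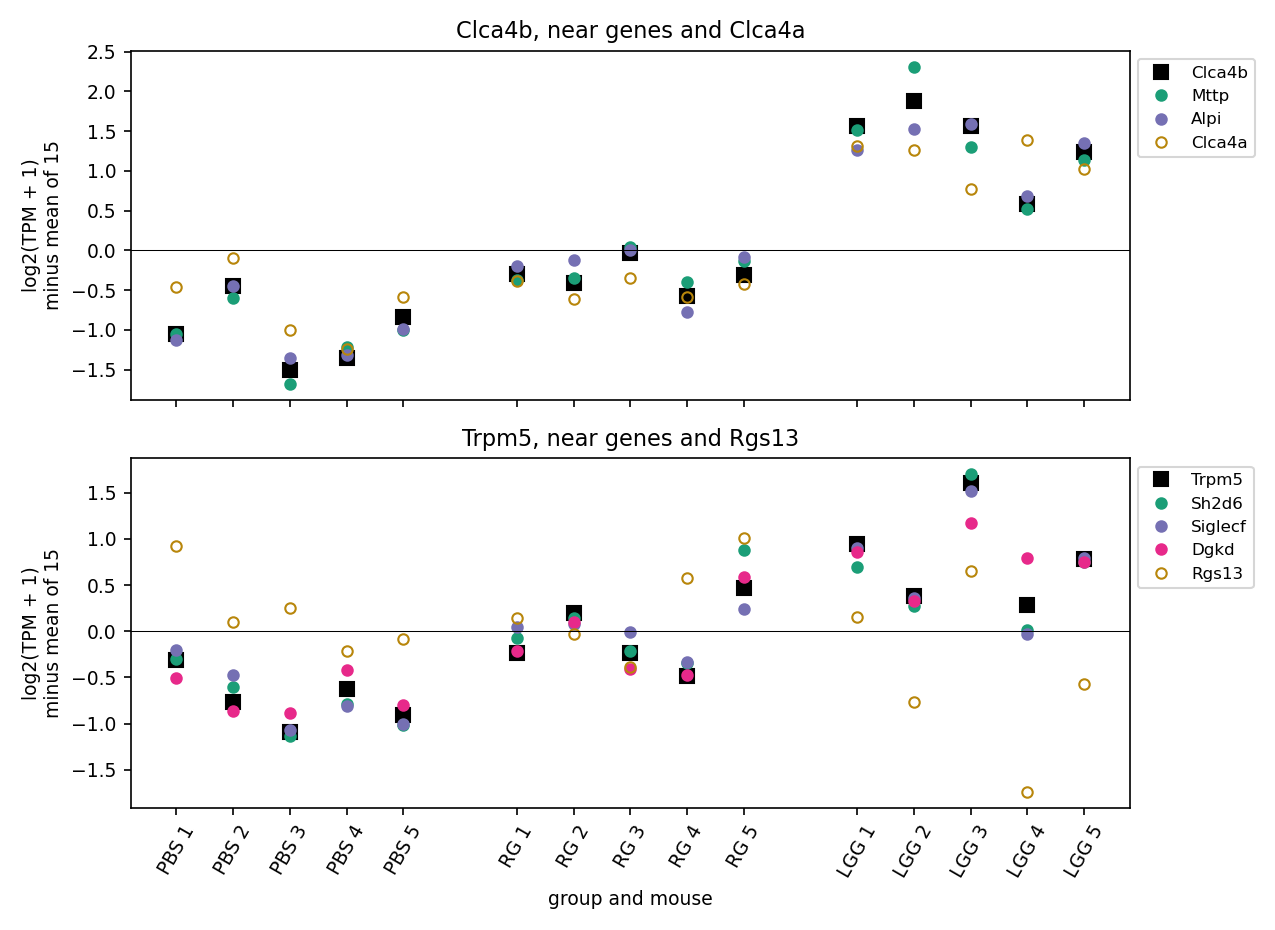
Level of Clca4b (upper panel) and Trpm5 (lower panel) with genes that lay near each and a further gene of the same family or list, as log2(TPM + 1) minus the mean over 15 libraries, by group and mouse. Mttp and Alpi follow Clca4b, Sh2d6, Siglecf and Dgkd follow Trpm5, and Rgs13 does not follow Trpm5.

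Chga and Scg2 encode chromogranin A and secretogranin II, acidic proteins of the granin family that help form the dense granules in which enteroendocrine cells, and also neurons, store their products. Chga lies on the plus strand at chr12:102554969-102565028, and Scg2 on the minus strand at chr1:79434669-79440120. Their promoters are shown because both are granin genes whose levels were higher in LGG, and because cAMP-responsive promoters are known for granin genes. The 250 bases before the RefSeq start (GRCm38.p6) were read 5′ to 3′ on the strand of the gene, from chr12:102554691-102554940 for Chga and from chr1:79440027-79440276 for Scg2. Capitals mark a match to TGACGTNA, the cAMP response element with 1 base left free, and to CTTTGA, a core bound by TCF/LEF factors.
Chga: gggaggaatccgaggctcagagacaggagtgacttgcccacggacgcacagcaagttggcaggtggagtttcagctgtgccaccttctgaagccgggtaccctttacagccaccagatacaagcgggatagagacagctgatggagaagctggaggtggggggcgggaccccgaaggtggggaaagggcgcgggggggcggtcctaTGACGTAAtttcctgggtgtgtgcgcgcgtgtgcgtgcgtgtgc
Scg2: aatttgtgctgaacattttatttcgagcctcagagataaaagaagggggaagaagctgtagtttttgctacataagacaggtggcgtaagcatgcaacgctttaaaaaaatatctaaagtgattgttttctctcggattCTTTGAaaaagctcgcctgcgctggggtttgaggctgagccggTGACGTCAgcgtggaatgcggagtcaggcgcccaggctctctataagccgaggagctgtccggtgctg

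Both strands were searched. The Chga match begins 44 bases before the start, and the Scg2 match, which is also a full TGACGTCA, begins 68 bases before it, with CTTTGA 111 bases before it. The RefSeq start of Scg2, chr1:79440026, lies inside the gene interval given above, which comes from GENCODE. Its TGACGTCA match, at chr1:79440087-79440094, also lies inside that interval, so whether it precedes the start depends on the annotation. Of 32851 promoters of the same length, 2.52% hold TGACGTNA, 1.55% hold TGACGTCA and 13.8% hold CTTTGA. The windows of Axin2, Clca4b and Trpm5 hold none of these letters. These matches describe letters and not binding.

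The level of Chga was 12.8, 13.2, 8.84, 10.4 and 12.2 TPM in the PBS mice. It was 17.5, 17.0, 20.8, 14.99 and 17.7 TPM in the RG mice. It was 32.7, 50.7, 25.1, 39.1 and 25.7 TPM in the LGG mice. The 3 groups did not overlap, in the order PBS, RG and LGG, with the widest spread in LGG. The means were 11.5 ± 1.82, 17.6 ± 2.08 and 34.7 ± 10.7 TPM. The log2 difference was 0.58 in RG and 1.48 in LGG, each against PBS, and -0.90 between RG and LGG (SE 0.181 each). Under median-of-ratios scaling the first was 0.26 and the second 0.66.

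The level of Scg2 was 6.62, 3.52, 2.71, 4.14 and 3.00 TPM in the PBS mice. It was 4.55, 4.85, 5.55, 5.53 and 3.60 TPM in the RG mice. It was 13.1, 6.58, 14.1, 10.5 and 12.9 TPM in the LGG mice. PBS and RG overlapped, and LGG mouse 2 lay just under PBS mouse 1 while the other LGG mice stood above every PBS and RG mouse. The means were 4.00 ± 1.56, 4.82 ± 0.808 and 11.5 ± 3.03 TPM. The log2 difference was 0.26 for RG against PBS, which became -0.013 under median-of-ratios scaling. It was 1.33 in LGG against PBS and -1.07 between RG and LGG (SE 0.221 each).

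The order of the mice differed between the granins. LGG mouse 2 had the highest Chga of all and the lowest Scg2 of its group. The ratio of Scg2 to Chga was 0.246 to 0.519 with PBS, 0.203 to 0.369 with RG and 0.130 to 0.563 with LGG. Over the 15 libraries 1712 genes lay nearer to Chga than Scg2 did. The nearest to Chga were Lpar5, a lysophosphatidic acid receptor, and Scamp5, a secretory carrier membrane protein, at 0.154 and 0.159. The nearest to Scg2 were the monocarboxylate transporter Slc5a8, the matrix protein Tgfbi and the receptor tyrosine kinase Ret, at 0.229, 0.245 and 0.254.

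Most of the other enteroendocrine genes that could be tested did not pass. The list names 52 genes, of which the 2 members and 7 others are in the deposited table. Of 6 others tested, 0 passed for RG against PBS by limma, with a median log2 difference of -0.11. In LGG mice, Ddc, the decarboxylase that makes serotonin and dopamine, rose by 1.65 over PBS (adjusted p = 3.91e-07 by limma), and the median of the 6 was -0.27 against 1.17 for all genes. The 2 of highest mean level were Reg4, a secreted lectin, and Sct, the hormone secretin. Sct was at 226 ± 12.8 TPM with PBS, 178 ± 29.8 with RG and 192 ± 50.6 with LGG. Reg4 was at 470 ± 389, 252.3 ± 115 and 262 ± 250 TPM, with 1160 TPM in PBS mouse 1.

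With median-of-ratios or upper-quartile scaling, 5 of the 6 enteroendocrine genes were lower and 1, Ddc, was higher in LGG than in PBS. Gcg, the precursor of glucagon-like peptides, chosen after its values were seen, was at 60.9 ± 9.95 TPM with PBS, 63.0 ± 23.3 with RG and 52.2 ± 16.7 with LGG. The ratio of Chga to Sct, which no scaling can move, was 0.0365 to 0.0575 with PBS, 0.0796 to 0.125 with RG and 0.102 to 0.414 with LGG. The ratio of Chga to Gcg was 0.162 to 0.218 with PBS, 0.194 to 0.660 with RG and 0.369 to 1.58 with LGG. LGG and PBS did not overlap in either ratio, and LGG mouse 2 was the highest in both. The ratio of Chga to Ddc, on the same list, showed no such separation. It was 0.286 to 0.446 with PBS, 0.317 to 0.481 with RG and 0.224 to 0.375 with LGG, with overlapping ranges.

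Transcript length moved with these differences. Across genes, Spearman's correlation of the log2 difference with merged exon length was 0.384 for RG and 0.391 for LGG, each against PBS, over 3527 genes that are not independent. Sct has 645 bases of exon and Gcg 1494, against 2756 for Chga and 2515 for Scg2. With the trend on length removed, Chga was 1.43 and Scg2 1.37 higher for LGG against PBS, while Sct turned from -0.28 to 1.45 and Gcg from -0.26 to 0.45. Under that correction the LGG difference of Sct was no longer below that of Chga.

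Enteric neurons also express granins. Of 3 neuron markers tested, 0 passed for RG against PBS, and Tubb3, a neuronal tubulin, and Ret rose in LGG against PBS by 1.34 and 0.94 (adjusted p = 0.000319 and 0.000341 by limma). With upper-quartile scaling Ret was at 0.32 and did not pass. The 4 listed neuron markers summed to 18.8 to 75.9 TPM with PBS, 9.44 to 45.9 with RG and 11.6 to 38.5 with LGG, and none was at 0 in any library. Most of this sum was Sncg, also on the list, at 30.7 ± 24.1 TPM with PBS, 25.1 ± 14.5 with RG and 20.8 ± 8.8 with LGG. The sum therefore does not show the rise of Tubb3 and Ret. The part of neurons in the levels of Chga and Scg2 was not tested.

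Trpm5 encodes a calcium-activated cation channel of the taste transduction cascade and is a defining gene of tuft cells. It lies on the minus strand at chr7:143069153-143094642. Its level was 2.81, 1.78, 1.22, 2.05 and 1.52 TPM in the PBS mice. It was 3.00, 4.40, 3.00, 2.38 and 5.50 TPM in the RG mice. It was 8.04, 5.14, 13.4, 4.73 and 7.10 TPM in the LGG mice. Every LGG mouse was above every PBS mouse, while RG overlapped with both through RG mouse 4, below the highest PBS mouse, and RG mouse 5, above the 2 lowest LGG mice. The means were 1.88 ± 0.607, 3.66 ± 1.27 and 7.67 ± 3.46 TPM.

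The log2 difference of Trpm5 was 0.68 in RG and 1.53 in LGG, each against PBS, and -0.86 between RG and LGG (SE 0.255 each). Because its level is near the added 1 TPM, the ratio of means, 1.95 for RG and 4.09 for LGG over PBS, is larger than these values give. Under median-of-ratios scaling the differences from PBS were 0.46 and 0.88. Trpm5 was also the member with the largest relative spread in LGG, with an SD of 45.1% of the mean, led by LGG mouse 3.

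Other tuft cell genes were read beside Trpm5. Of 12 tested, 2 were higher and 0 lower for RG against PBS, with a median log2 difference of 0.59 beside 0.38 for all genes. These were Sh2d6, an SH2 domain protein, at 0.84 (adjusted p = 0.0451 by limma), and Siglecf, a sialic acid receptor also found on eosinophils, at 0.72 (adjusted p = 0.0485 by limma). Both calls were lost under median-of-ratios scaling, with adjusted p of 0.116 and 0.118 by limma. For LGG against PBS, 10 were higher and 0 lower, with a median of 1.32 beside 1.17. The 4 of smallest adjusted p were Itpr3, the calcium release channel upstream of Trpm5, Siglecf, the actin-binding Avil and Itpr2, which rose by 1.40, 1.42, 1.24 and 1.10. With median-of-ratios scaling 8 were higher and 2 lower, and with upper-quartile scaling 5 were higher and 2 lower. Itpr2 lost its call under both, at 0.41 and 0.31. For RG against LGG, 0 were higher and 6 lower as deposited, but 2 were higher and 0 lower under either scaling, while 0 were higher and 10 lower without PBS mouse 1 and RG mice 2 and 5. Of all 3436 genes tested in the last fit, 362 were higher and 1908 lower.

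The nearest genes to Trpm5 over the 15 libraries were Sh2d6, Siglecf and the diacylglycerol kinase Dgkd, at 0.171, 0.176 and 0.210 against a median of 0.619, and the first 2 are on the tuft list. The ratio of Trpm5 to Sh2d6 was 0.598 ± 0.0685 with PBS, 0.563 ± 0.0736 with RG and 0.715 ± 0.0745 with LGG, with overlapping ranges. Rgs13, a regulator of G protein signalling on the same list, was chosen after its values were seen. It was at 31.6 ± 11.3 TPM with PBS, 33.7 ± 13.5 with RG and 22.2 ± 13.6 with LGG and did not pass, and the ratio of Trpm5 to Rgs13 was 0.0387 to 0.0911 in PBS and 0.273 to 0.657 in LGG, without overlap. Rgs13 has 1655 bases of exon and Trpm5 6398, so the trend on length bears on this ratio too.

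On the tuft list, Ptpn6, Vav1, Plcg2 and Alox5 are also leukocyte genes. The 16 immune markers summed to 117 to 394 TPM with PBS, 168 to 1420 with RG and 70.1 to 309 with LGG, and 0 of the 16 passed against PBS in either comparison by limma. Much of the PBS sum was Jchain, at 113 ± 97.9 TPM with PBS and 60.4 ± 40.5 with LGG. The median log2 difference of the 16 was 1.04 for RG and 0.75 for LGG, each against PBS, beside 0.38 and 1.17 for all genes. Without PBS mouse 1 and RG mice 2 and 5, 14 were tested, and 8 were higher and 1 lower for LGG against PBS, beside 10 of 12 tuft genes higher. Of all 3436 genes tested in that fit, 1979 were higher and 620 lower, so the immune count is near the background. With either scaling 0 of the 16 were higher and 3 lower for LGG against PBS. RG mouse 2, the library with 1420 TPM, held 18.7 TPM of Plcg2, the highest of all, and the part of leukocytes in these values was not tested. Trpm4, the closest relative of Trpm5 and not restricted to tuft cells, rose by 0.54 for RG against PBS (adjusted p = 0.0374 by limma) and by 1.58 for LGG against PBS (adjusted p = 6.72e-07 by limma). Its RG difference was 0.21 with median-of-ratios and 0.27 with upper-quartile scaling and passed under neither.

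**Figure D3:**
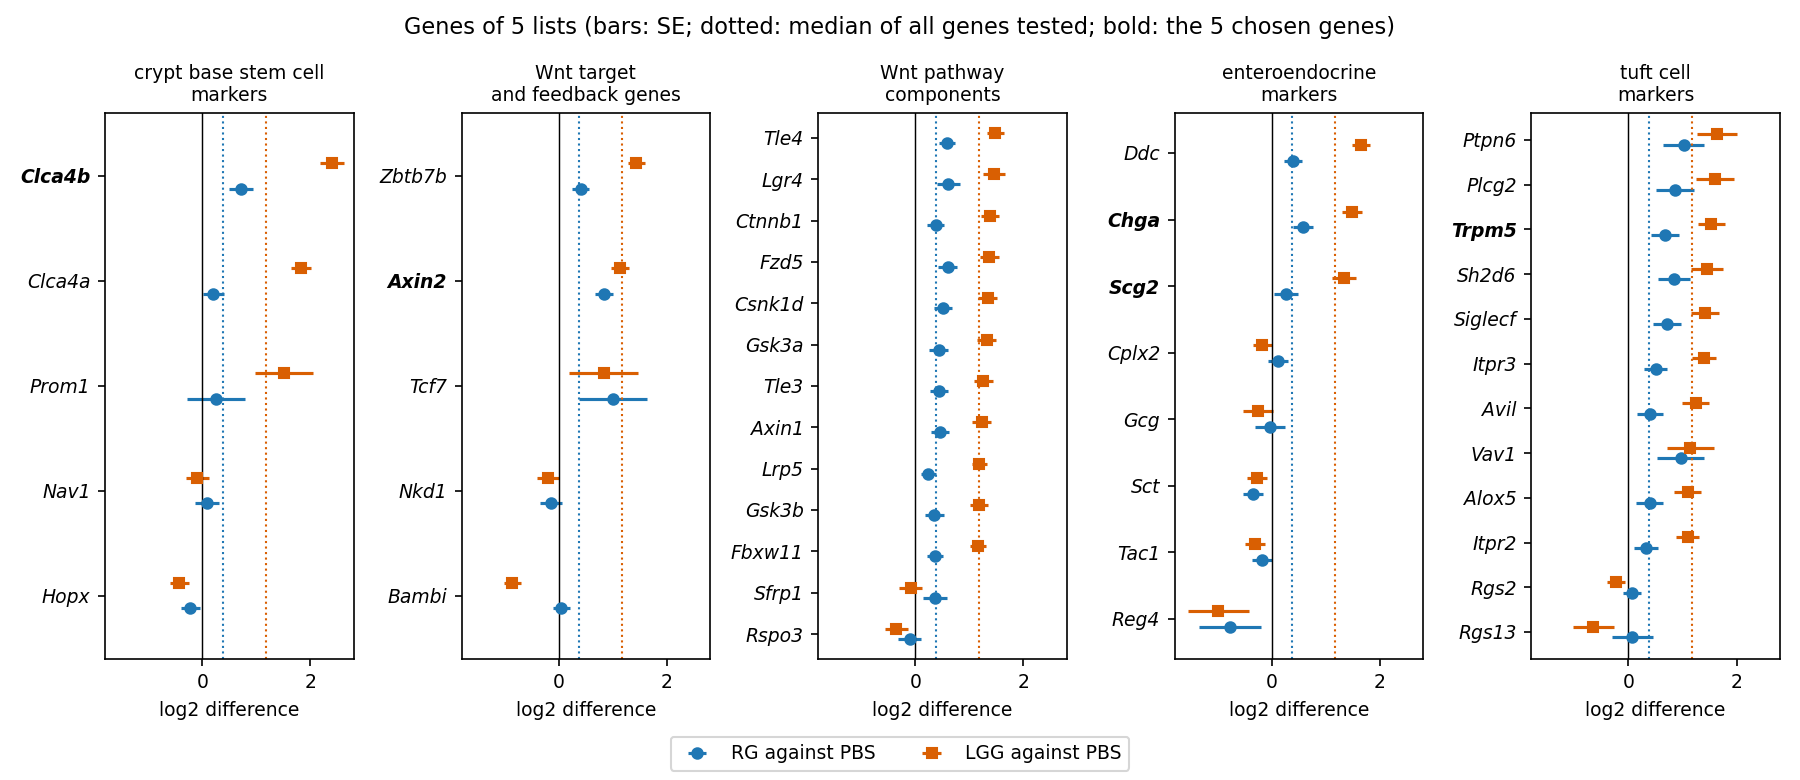
Log2 difference of (TPM + 1) with its SE for tested genes of 5 lists, RG against PBS as circles and LGG against PBS as squares, with the 5 chosen genes in bold and the median of all genes tested dotted. Tuft genes other than Rgs2 and Rgs13 lie near or above the LGG median, while 5 of the 6 other enteroendocrine genes lie below 0 for LGG.

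Set against the background, 3 of the 5 genes (Axin2, Clca4b and Chga) passed as higher for RG against PBS, where 22.8% of all genes did. The groups did not overlap for 2 of them, Axin2 and Chga, where 13.0% of all genes were higher without overlap. For LGG against PBS 5 of 5 passed as higher beside 54.7%, and 4 of 5, all but Scg2, did not overlap beside 53.0%. For RG against LGG 4 of 5, all but Axin2, passed as lower beside 53.5%, and 3 of 5 (Clca4b, Chga and Scg2) did not overlap beside 36.4%. With median-of-ratios or upper-quartile scaling, Axin2 alone of the 5 passed for RG against PBS. Of the 3530 genes tested, 42 and 115 were higher there. In the LGG comparison with PBS, 5 passed as higher with median-of-ratios scaling, beside 1731 of all genes. With upper-quartile scaling it was 4, all but Axin2, beside 1467. For RG against LGG, 2 (Clca4b and Scg2) and 1 (Clca4b) passed as lower under these scalings, beside 1056 and 554. The genes were chosen with these comparisons known, so nothing is read from the counts. RG against PBS and LGG against PBS share their PBS libraries.

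**Figure D4:**
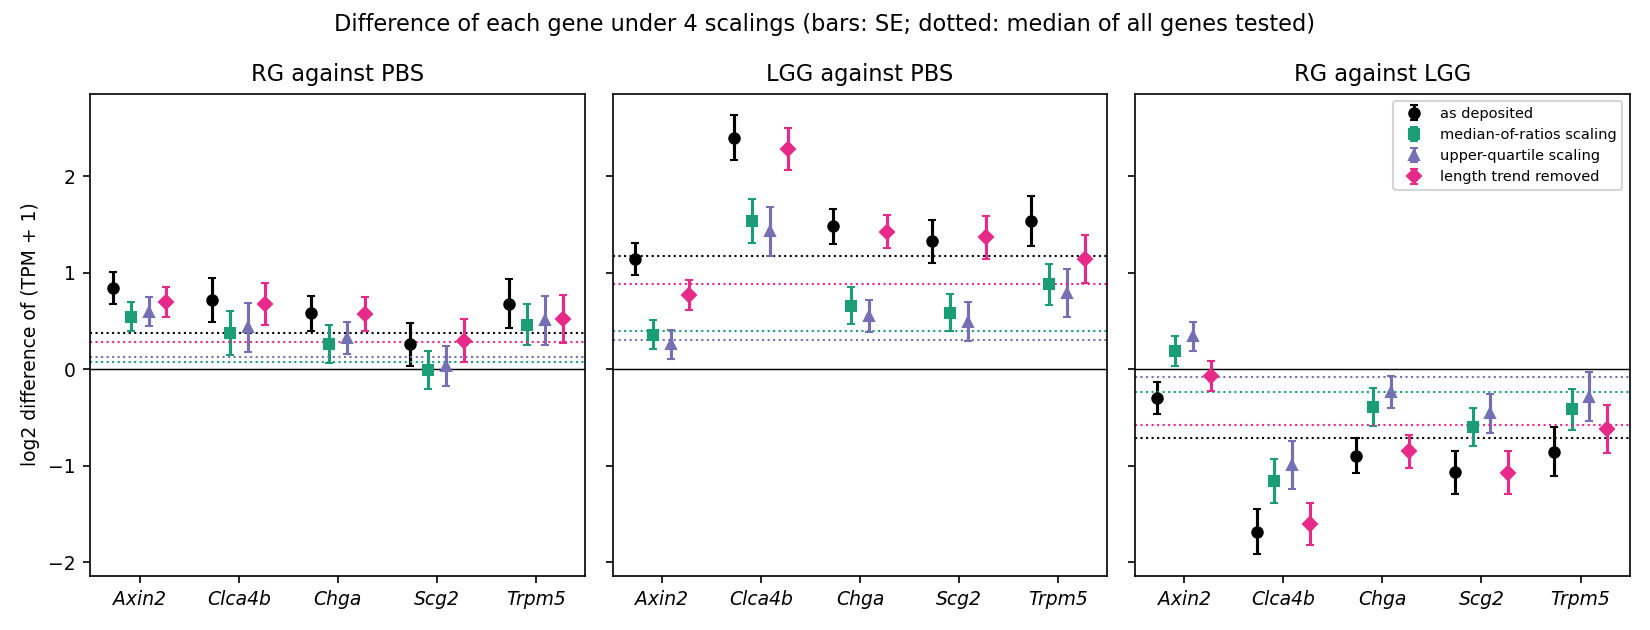
Log2 difference of (TPM + 1) with its SE for each gene in the 3 comparisons, as deposited, with median-of-ratios scaling, with upper-quartile scaling and with the trend on length removed; dotted lines give the median of all genes tested under each. Axin2 changes direction between RG and LGG with the scaling, and Clca4b stays above the median for LGG against PBS under all 4.

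The members differed from each other in how they followed the groups. Of the 10 pairs, Scg2 and Trpm5 were the nearest, with a root mean square difference of 0.396, and Axin2 and Clca4b the farthest, at 0.758. The nearest genes to Axin2 were Tmem175, a lysosomal ion channel, the helicase Dhx36 and the reductase Frrs1, at 0.220, 0.235 and 0.236. None of these is on a Wnt list. By mean level, Trpm5 was the lowest of the 5 in each group and Clca4b the highest.

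**Figure D5:**
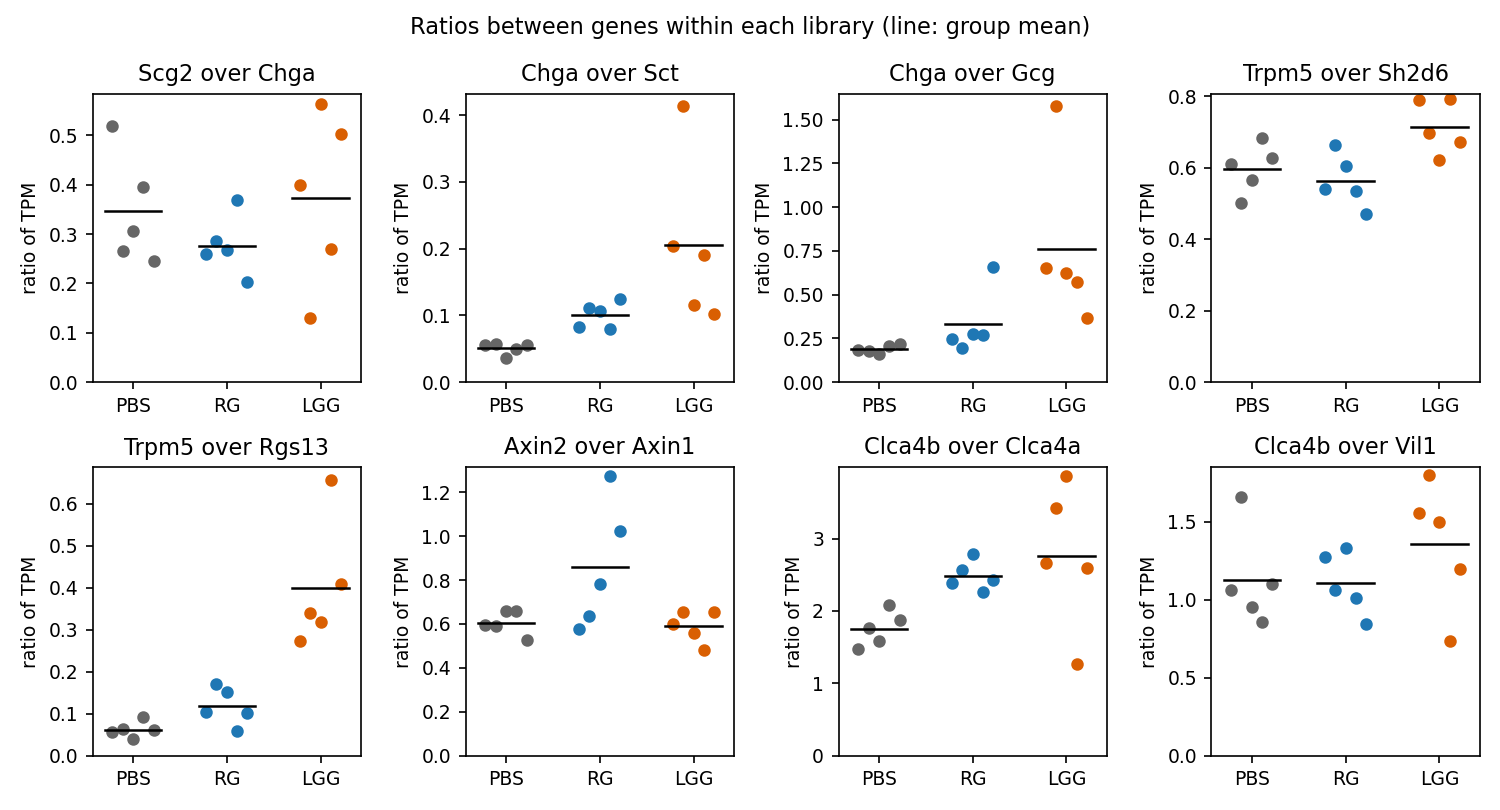
Ratio of the TPM of 2 genes within each library, by group, with 1 point for each mouse and a line for the group mean. Chga over Sct and Trpm5 over Rgs13 do not overlap between PBS and LGG, while Scg2 over Chga, Trpm5 over Sh2d6 and Clca4b over Vil1 do.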

How the data were processed

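RNA from whole ileum was measured in 15 libraries, 5 per group, and depth is unknown. The library kit was NEBNext Ultra II, per the labels' protocols, and the build is GRCm38 (mm10), per the submitters' processing notes. What aligned and counted the reads is not given in the sources used here. Values are TPM, deposited by the authors in 1 table whose listed genes hold 48.0 to 66.1% of all TPM. Genes with TPM of at least 1 in 5 or more libraries were fitted as log2(TPM + 1) with robust limma-trend (limma 3.58.1, R 4.3.3) in 1 model of 3 groups, which left 648 genes untested. The fit was tested on simulated data. Summed TPM of lists are given without a p, because the lists were chosen with results known. Of the 4178 gene names, 4173 were found in GENCODE mouse release 21. The members and the lists were chosen with earlier results of these data known. Named genes were those of each list past the threshold (the 4 of smallest p where more than 6 passed; the 2 of highest level where none did) and the 3 nearest genes of each member, and the text names part of them; other genes named were chosen after their values were seen. Some genes are not reported here. The labels name each mouse as a separate sample and give no cage, litter or sex.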

Additional observations from a re-analysis of the deposited data

Results flagged for a closer look

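In 7 of 63 groups of 5 libraries, 1 library stood far from the other 4, beyond Dixon's critical value of 0.710 for the gap over the range; chance flags about 1 in 20 groups. Axin2 was at 18.5 TPM in LGG mouse 5, with the next LGG mouse at 15.03. The summed Wnt target and feedback genes without Axin2 reached 170.6 TPM in LGG mouse 4, with the next at 119.6. Most of this sum was 1 gene, Zbtb7b, which reached 162.7 TPM. PBS mouse 1 was the highest of its group in the summed enteroendocrine markers, at 1505 TPM against 691.3, in the tuft cell markers, at 124.5 against 86.9, and in the immune cell markers, at 394.3 against 189.4. Reg4 alone held 1160 TPM of its enteroendocrine sum. PBS mouse 4 held 75.9 TPM of enteric neuron markers against 28.8 in the next, and most of it was 1 gene, Sncg, which reached 73.15 TPM. RG mouse 2 held 1420 TPM of immune cell markers against 257.5 in the next.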

How the results depend on the processing

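Axin2, Chga and Clca4b, called higher for RG against PBS with all libraries, kept that call in 15, 9 and 7 of 15 fits without 1 library. Signs of the 5 genes' differences held under all alternatives run but these. Axin2 turned in RG against LGG, to 0.19 with median-of-ratios and 0.34 with upper-quartile scaling. Scg2 turned in RG against PBS, to -0.013 with median-of-ratios scaling, and the cause of these turns was not tested. The count of genes past the threshold for RG against PBS, 948, was 612 and 583 under these scalings, 383 with only the 2 groups compared, 377 with the trend on length removed, 40 to 1595 without 1 library and 0 without 3 libraries (0 also means that no gene of a list passed there; 963 had an unadjusted p under 0.05). The share of calls that were higher moved from 84.8 to 6.86 and 19.7% for RG against PBS, from 76.8 to 55.5 and 51.4% for LGG against PBS, and from 13.3 to 50.8 and 69.2% for RG against LGG. Mouse numbers are shared between groups, but same-numbered mice did not deviate together (correlations -0.46 to 0.29), so they name mice only; with mouse number as a replicate block 174 genes passed for RG against PBS. Counts over lists were equal to the main count or within 1.5 times it in 2234 of the comparisons with an alternative and moved further in 262. The first number includes counts of 0 that stayed at 0, so it says little of how stable the other counts were. TPM hide depth, so low levels such as that of Trpm5 have an unknown counting error.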

Other observations

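The list of taste transduction genes held 2 tested genes beside Trpm5, Itpr3 and Trpm4, and their summed level was 36.1 ± 2.27 TPM with PBS, 53.7 ± 7.64 with RG and 114 ± 35.9 with LGG (SD, n = 5). Most of this sum was Trpm4, at 30.1 ± 1.31 TPM with PBS, 44.6 ± 6.24 with RG and 95.6 ± 30.1 with LGG. Of the 2 genes, 1 passed as higher for RG against PBS as deposited and 0 with either scaling. Furin, a protease that matures prohormones and many other secreted proteins, was at 19.1 ± 2.91 TPM with PBS, 24.6 ± 5.80 with RG and 52.5 ± 9.57 with LGG, and it rose by 1.41 on the log2 scale for LGG against PBS (adjusted p = 1.66e-06 by limma). Erbb3, on the glia list and also an epithelial receptor, rose by 0.63 for RG against PBS and by 1.63 for LGG against PBS (adjusted p = 0.0368 and 1.83e-06 by limma). The RG difference of Erbb3 was 0.29 with median-of-ratios and 0.35 with upper-quartile scaling and passed under neither. Of the same list, the glial gene Fabp7 fell by 0.75 for LGG against PBS (adjusted p = 0.00376 by limma) and was at 0.18, without passing, with the trend on length removed.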
